A study of Komagataella phaffii with 18 samples.

Results

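In Komagataella phaffii, a methylotrophic yeast, 25 features differed in level between cells fixed in the a mating type and cells fixed in the α mating type after 24 h in acetate medium, 9 of them higher in a-type and 16 higher in α-type. They were picked out of 4831 features on the 4 chromosomes with a coding length above 300 and a serial number in the ID of at least 75, among 5341 features in all. They were chosen by their levels in acetate, as estimated counts scaled to a library sum of 1000000 (CPM) and averaged over 3 libraries. A feature was kept when the ratio of (a-type + 5 CPM) to (α-type + 5 CPM) in acetate was at least 2 or at most 0.5, the higher mean reached 20 CPM, and the 3 a-type and 3 α-type libraries did not overlap. The acetate difference between a-type and α-type therefore chose these features. It is described below and was not tested, and the 9 and 16 features are 0.186% and 0.331% of the 4831.

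The study sequenced polyadenylated RNA of strain background CBS2612 in 18 libraries, 3 in each of 6 groups. These were a-type cells of genotype dic1-2Δ(a), α-type cells of genotype dic1-2Δ(α) and wild-type cells, each after 24 h in acetate medium, and the same 3 strains growing exponentially in YPD, which is a rich medium. The acetate samples came from the YPD cultures after the shift, so medium, time and growth phase cannot be told apart. Each mating type was represented by 1 genotype, and no label says if a group's 3 samples were grown as separate cultures, so the p-values below measure a spread that may be technical.

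Yeast mating joins cells of opposite type. In Saccharomyces cerevisiae, regulators encoded at the mating-type locus switch on α-specific genes in α cells and leave a-specific genes on in a cells, and these sets hold the pheromone of each type and the receptor for the pheromone of the other. Wild-type K. phaffii is homothallic and can switch its mating type, so a wild-type culture may hold cells of both types, whereas a heterothallic strain keeps one. Mating in this species is induced by poor media, and per the labels' protocols the shift to acetate was meant to switch on mating genes. The feature IDs are not paired with gene names in the files, and 0 of the 5341 matched the reference gene table, so none of the 25 can be given a gene name or function, and no list of known mating genes could be applied.

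Depth was low, with total estimated counts of 637339 to 765524 in the acetate libraries and 234044 to 309362 in the YPD libraries. A count of 0 over a group of 3 libraries allows up to 1.51 CPM for a-type and 1.40 CPM for α-type in acetate, and 3.43 CPM for a-type and 3.54 CPM for α-type in YPD. Such floors, taken at 3 counts over the group, and all counting intervals below cover counting error only. The biological coefficient of variation was 11.4% to 13.9% in the acetate groups and 32.0% to 39.5% in the YPD groups. In RNA from whole cultures, fewer cells of a type and less RNA per cell cannot be told apart.

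The edges of the rule fell among features with small ratios. Just inside the limit on the ratio were PP7435_Chr2-0523, with 2.004 in favour of α-type, and PP7435_Chr2-0751, with 2.01 in favour of a-type. Just outside were PP7435_Chr3-0786, with 1.96 in favour of α-type, and PP7435_Chr2-0743 and PP7435_Chr4-0810, with 1.95 and 1.91 in favour of a-type. At the limit on level, PP7435_Chr1-1092 entered with a higher mean of 22.2 CPM, while PP7435_Chr1-1164 and PP7435_Chr2-0978 stayed out at 13.5 and 13.1 CPM. A further 5 features met every other condition but had serial numbers below 75.

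**Figure D1:**
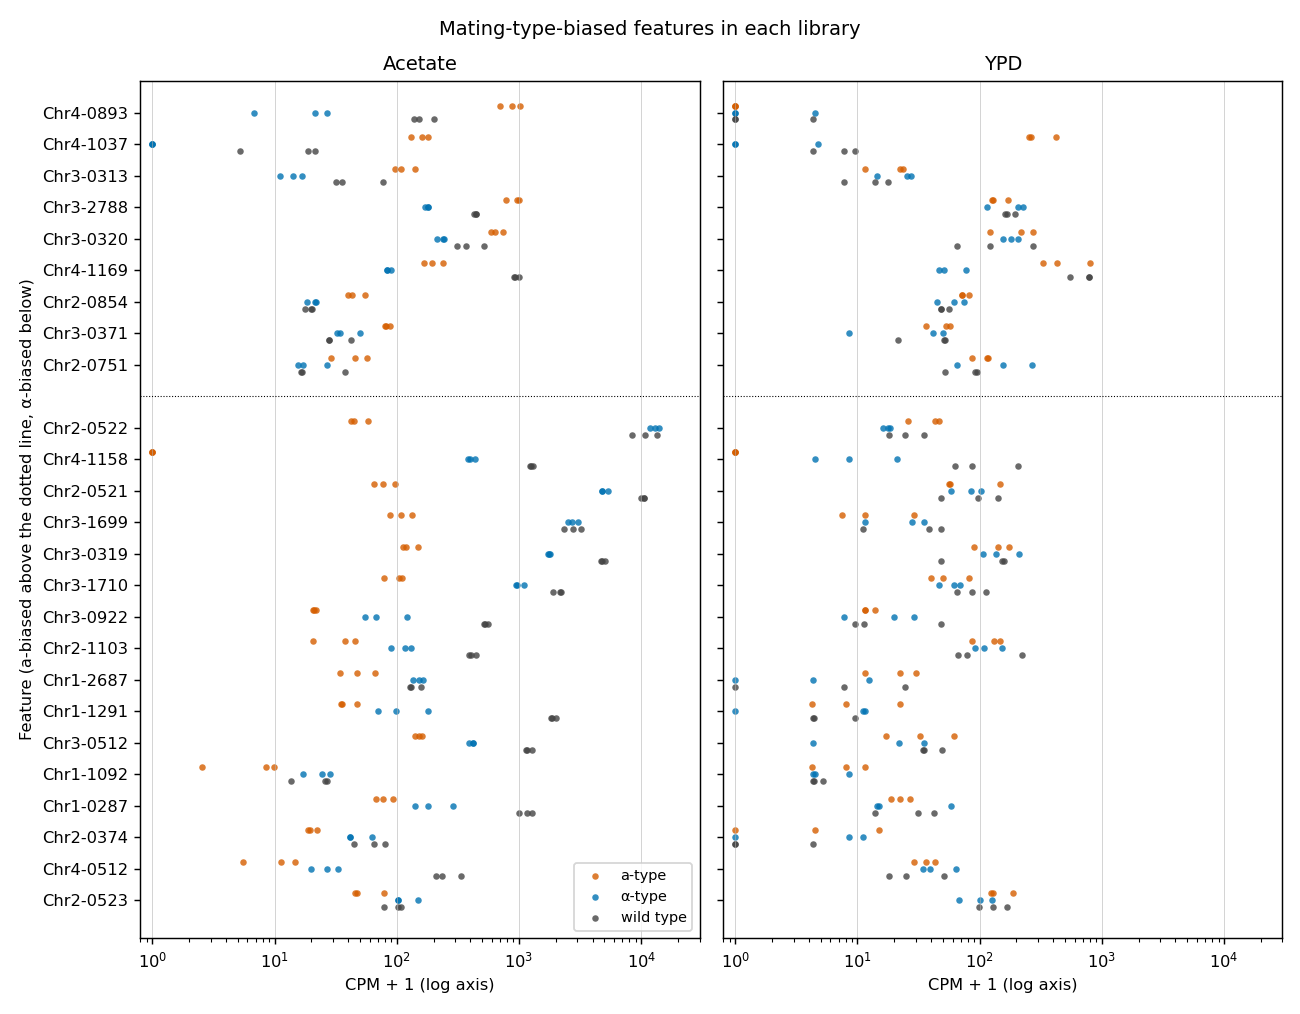
Level of each of the 25 features in each library, as CPM + 1 on a log axis, in acetate (left) and YPD (right); each point is 1 library, orange for a-type, blue for α-type and grey for wild type, with a-biased features above the dotted line and α-biased features below, ordered by the size of the acetate ratio. In acetate the α-type points of PP7435_Chr2-0522 lie between 11907 and 14078 CPM and its a-type points between 41.6 and 56.7 CPM, whereas in YPD most features show the 3 strains mixed.

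The a-biased features were led by PP7435_Chr4-0893, which was low but present in α-type, and PP7435_Chr4-1037, which was close to absent there. In acetate, PP7435_Chr4-0893 (coding length in bases 1065) had 695, 1009.5 and 879.9 CPM in a-type, against 20.4, 26.1 and 5.82 CPM in α-type. The log2 ratio of a-type to α-type was 5.27. Wild type held an intermediate level of 202, 137 and 152 CPM. In YPD this feature was near silent in every strain, with 0 counts in a-type, 1 count in α-type and 1 count in wild type over 3 libraries each. It was thus at least 251-fold higher in acetate than in YPD in a-type. The acetate over YPD ratio was 15.1 in α-type, with a 95% counting interval of 2.55 to 611.

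PP7435_Chr4-1037 (coding length 537) was found in a-type in both media. It had 131, 159 and 179 CPM in acetate a-type and no counts in α-type libraries of that medium, which is a difference of at least 111-fold. In YPD it had 424, 262 and 254 CPM in a-type, against 0, 3.80 and 0 CPM in α-type, where the one value above 0 is 1 count. The YPD libraries did not enter the rule, and there the ratio of a-type to α-type was 265 by summed counts, and its 95% counting interval ran from 47.1 to 10489 (adjusted p = 4.62e-05, edgeR quasi-likelihood test over 3646 features). Wild type was low in both media, at 17.7, 4.22 and 20.4 CPM in acetate and 3.36, 6.83 and 8.55 CPM in YPD. In YPD it was higher in a-type than in wild type, by 5.46 on the log2 scale (SE 0.55, adjusted p = 0.000226). Unlike PP7435_Chr4-0893, its a-type level was lower in acetate than in YPD, at 0.507 times the YPD level on the scale of mean + 5 CPM, and the 2 sets of 3 libraries did not overlap.

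PP7435_Chr4-1169 (coding length 1191) was the other a-biased feature with a difference in YPD. Acetate values were 191, 236 and 166 CPM in a-type, against 81.5, 88.8 and 81.5 CPM in α-type, a log2 ratio of 1.19. In YPD it had 792, 326 and 427 CPM in a-type, against 50.2, 76.02 and 45.4 CPM in α-type. The YPD libraries gave an edgeR log2 fold change of 3.09 with SE 0.42 and adjusted p = 0.00391, and the strains did not overlap. It lost the threshold without YPD α-type replicate 1 (log2 fold change 2.98, adjusted p = 0.0821) or replicate 3 (log2 fold change 2.95, adjusted p = 0.0701). Wild type was high in both media, at 915, 932 and 995 CPM in acetate and 779, 549.6 and 786 CPM in YPD. In acetate all 3 wild-type libraries lay above all 6 heterothallic libraries, which was the case for no other a-biased feature. In YPD α-type was lower than wild type, at -3.68 on the log2 scale (SE 0.42, adjusted p = 0.00112, edgeR), while a-type against wild type did not pass (-0.59, SE 0.37, adjusted p = 0.929).

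Another 3 a-biased features, all on chromosome 3, overlapped among the strains in YPD and were separated in acetate. PP7435_Chr3-2788 (coding length 3321) had 999, 963 and 782 CPM in a-type, against 181, 179 and 169 CPM in α-type in acetate (log2 ratio 2.34). Its wild-type values were 426, 445 and 441 CPM, between those of the heterothallic strains with no overlap. The YPD values were 127, 126 and 169.5 CPM for a-type, 204, 114 and 223 CPM for α-type and 195, 160.5 and 167 CPM for wild type, so that the strains overlapped. Its α-type mean in acetate was 0.976 times the YPD mean on the scale of mean + 5 CPM, against 6.30 times in a-type.

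PP7435_Chr3-0313 (coding length 1839) showed the same arrangement, with acetate values of 107, 139 and 95.04 CPM in a-type, against 13.1, 15.7 and 10.2 CPM in α-type (log2 ratio 2.72). Acetate wild type had 76.4, 30.97 and 34.5 CPM, above every α-type library and below every a-type library. In YPD it had 10.6, 22.6 and 21.2 CPM for a-type, 13.4, 26.6 and 24.4 CPM for α-type and 16.8, 6.83 and 12.8 CPM for wild type. PP7435_Chr3-0320 (coding length 3765) had 637, 734 and 590.2 CPM in a-type, against 213, 238 and 244 CPM in α-type in acetate (log2 ratio 1.48), and 517, 309.7 and 369 CPM in wild type. In YPD its values were 120.2, 217 and 272 CPM for a-type, 154, 205 and 178 CPM for α-type and 121, 269.7 and 64.1 CPM for wild type, which overlapped. For both features the a-type level in acetate was above the YPD level without overlap, while in α-type the acetate mean of PP7435_Chr3-0313 was 0.679 times and that of PP7435_Chr3-0320 1.29 times the YPD mean on the scale of mean + 5 CPM.

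The remaining 3 a-biased features had ratios of 2.01 to 2.03. For PP7435_Chr2-0854, acetate a-type averaged 44.9 ± 7.82, α-type 19.6 ± 1.85 and wild type 18.3 ± 1.20 CPM (SD, n = 3 each). For PP7435_Chr3-0371, a-type averaged 82.1 ± 4.60, α-type 38.1 ± 9.92 and wild type 31.4 ± 8.21 CPM. For PP7435_Chr2-0751, a-type averaged 42.9 ± 14, α-type 18.9 ± 6.30 and wild type 22.7 ± 12.3 CPM. None of these 3 met the rule when library sizes were adjusted by TMM, the trimmed mean of M-values, whereas the other 6 a-biased and all 16 α-biased features did. PP7435_Chr2-0854 and PP7435_Chr2-0751 had lower means in acetate than in YPD in every strain.

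The α-biased features were led by PP7435_Chr2-0522 (coding length 1197), which had 41.6, 43.96 and 56.7 CPM in a-type, against 11907, 14078 and 12937 CPM in α-type in acetate. The log2 ratio of a-type to α-type was -7.95. Wild type reached the level of α-type, with 13408, 8413 and 10804 CPM, and overlapped it. In YPD the same feature was scarce, with 42.4, 45.3 and 24.7 CPM for a-type, 16.7, 15.2 and 17.4 CPM for α-type and 23.5, 17.1 and 34.2 CPM for wild type. The YPD values lay the other way round, each a-type library above each α-type library, but the difference rested on 33 counts for a-type against 14 for α-type, and the feature did not pass the filter on low counts for the YPD test. Its acetate level was 1.23 times the YPD level in a-type and 605 times in α-type, on the scale of mean + 5 CPM.

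PP7435_Chr2-0521 (coding length 474), the preceding serial number, followed the same course. It had 96.5, 63.7 and 76.6 CPM in a-type, against 4798, 5351 and 4769 CPM in α-type in acetate (log2 ratio -5.89). Here wild type stood above α-type, with 9962, 10612 and 10472 CPM, and did not overlap it. In YPD the values were 145, 54.95 and 56.5 CPM for a-type, 56.9, 83.6 and 101 CPM for α-type and 141, 95.6 and 47 CPM for wild type. All 3 strains overlapped there. PP7435_Chr2-0523 (coding length 1605), the next serial number, only just met the rule, with 46.02, 77.3 and 44.5 CPM in a-type, against 102, 148 and 102 CPM in α-type in acetate and 102, 77.4 and 107 CPM in wild type. Its YPD values were 127, 187 and 124 CPM for a-type, 100.4, 125 and 66.3 CPM for α-type and 128, 167 and 98.3 CPM for wild type, so the acetate level of α-type was within the range seen in YPD, and 2 of the 3 acetate a-type values were below every YPD value. These 3 serial numbers were the only run of 3 among the 25 features.

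PP7435_Chr4-1158 (coding length 522) was not counted in any of the 6 a-type libraries. Acetate α-type had 383, 439 and 396 CPM, so a-type lay below α-type by at least 269-fold. Acetate wild type had 1243, 1294 and 1238 CPM, which places a-type at least 833-fold below wild type. In YPD it had 20.1, 7.60 and 3.49 CPM in α-type, from 9 counts, and 205, 61.5 and 85.5 CPM in wild type. The YPD libraries of a-type were below wild type by at least 35.0-fold (adjusted p = 0.00996, edgeR; 0.0809 without YPD a-type replicate 2 and 0.0950 without YPD wild-type replicate 1; DESeq2 gave it no adjusted p). The difference between a-type and α-type in YPD, at least 3.10-fold, did not pass (unadjusted p = 0.00930, adjusted p = 0.997, edgeR). Against wild type, α-type in YPD was at -3.48 on the log2 scale (SE 0.67, unadjusted p = 0.000178, adjusted p = 0.325, edgeR), which did not pass; it was called lower by DESeq2 and in the fit with all 18 libraries.

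On chromosome 3, another 3 α-biased features were among the 6 with the largest ratios. PP7435_Chr3-1699 (coding length 1128) had 108, 133 and 87.4 CPM in a-type, against 2537, 3041 and 2702 CPM in α-type (log2 ratio -4.59), and 3232, 2339.7 and 2791 CPM in wild type, which overlapped α-type. In YPD it had 28.3, 6.46 and 10.6 CPM for a-type, 26.8, 34.2 and 10.5 CPM for α-type and 10.1, 37.6 and 47 CPM for wild type. Of these 6 it had the highest ratio of acetate to YPD in a-type, 5.70 on the scale of mean + 5 CPM, with no overlap between the media.

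PP7435_Chr3-0319 (coding length 639) had 119, 149 and 112 CPM in a-type, against 1718, 1777 and 1807 CPM in α-type in acetate (log2 ratio -3.75), and 4708, 4757 and 5079 CPM in wild type. YPD values were 88.4, 139 and 173 CPM for a-type, 134, 209 and 105 CPM for α-type and 158, 150.2 and 47 CPM for wild type. In a-type the acetate and YPD values overlapped, while α-type and wild type were above YPD in acetate in every library. Its serial number is followed by that of PP7435_Chr3-0320, so that consecutive serial numbers carried opposite biases.

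PP7435_Chr3-1710 (coding length 312) had 77.2, 103 and 110.4 CPM in a-type, against 1103, 955 and 949 CPM in α-type in acetate (log2 ratio -3.31), and 1909, 2193 and 2168 CPM in wild type. In YPD the values were 49.5, 38.8 and 81.2 CPM for a-type, 60.2, 68.4 and 45.4 CPM for α-type and 63.8, 113 and 85.5 CPM for wild type. The strains overlapped in YPD, and in acetate they were separated without overlap in the order a-type, α-type, wild type.

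The other 9 α-biased features had smaller ratios, 2.11 to 3.39 in favour of α-type. For PP7435_Chr3-0512, acetate a-type averaged 150 ± 9.07, α-type 407 ± 18.7 and wild type 1192 ± 76.3 CPM (SD, n = 3 each). At PP7435_Chr1-0287, a-type averaged 78.5 ± 12.8, α-type 202 ± 76.7 and wild type 1151 ± 144 CPM. At PP7435_Chr1-1291, a-type averaged 38.2 ± 6.79, α-type 115 ± 56.7 and wild type 1894 ± 86.3 CPM. On the scale of mean + 5 CPM, α-type was 0.344 times wild type for the first, 0.179 times for the second and 0.0634 times for the third.

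At PP7435_Chr3-0922, a-type averaged 20.1 ± 0.568, α-type 80.3 ± 35.1 and wild type 532 ± 22.8 CPM. At PP7435_Chr2-1103, a-type averaged 33.7 ± 12.7, α-type 112 ± 20.8 and wild type 412 ± 26.2 CPM. At PP7435_Chr4-0512, a-type averaged 9.58 ± 4.68, α-type 25.7 ± 6.57 and wild type 259 ± 67.6 CPM. These had α-type at 0.159, 0.280 and 0.116 times wild type, in the order given, on the scale of mean + 5 CPM. For the last of these, acetate levels of both heterothallic strains lay below their YPD levels, whose means were 35.4 CPM for a-type and 44.8 CPM for α-type, without overlap.

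In the final 3, wild type and α-type had similar levels. For PP7435_Chr1-2687, acetate a-type averaged 48.4 ± 16.4, α-type 150 ± 14.6 and wild type 138 ± 17.3 CPM. For PP7435_Chr2-0374, a-type averaged 19.1 ± 1.82, α-type 47.6 ± 11.9 and wild type 62.4 ± 17.8 CPM. For PP7435_Chr1-1092, a-type averaged 6.01 ± 3.93, α-type 22.2 ± 5.78 and wild type 21.2 ± 7.43 CPM. The α-type and wild-type libraries overlapped in all 3.

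By the TPM values the authors deposited, the α-biased features spanned a wide range of levels in acetate α-type. TPM scales each abundance for library and for an effective length, which falls short of the coding length by a larger part in short features. The order by TPM may therefore differ from the order per base of coding length. By CPM, PP7435_Chr2-0522 was the higher in acetate α-type, at 12974 ± 1086 against 4973 ± 328 for PP7435_Chr2-0521 (SD, n = 3). PP7435_Chr2-0521 was the highest at 18701 ± 792 TPM (SD, n = 3), followed by PP7435_Chr2-0522 at 9509 ± 764, PP7435_Chr3-1710 at 6375 ± 253, PP7435_Chr3-0319 at 3589.6 ± 91.1 and PP7435_Chr3-1699 at 2197 ± 192 TPM. Neighbours in this order were farther apart than their SDs. In acetate wild type PP7435_Chr2-0521 was also the highest, at 37899.6 ± 142 TPM, but PP7435_Chr3-1710 (12737 ± 499 TPM) and PP7435_Chr3-0319 (9604 ± 389.8 TPM) came before PP7435_Chr2-0522 (7636 ± 1721 TPM). PP7435_Chr3-0319 and PP7435_Chr2-0522 differed by little more than the SD of PP7435_Chr2-0522. Among the a-biased features, PP7435_Chr4-0893 was the highest in acetate a-type at 757 ± 144 TPM, followed by PP7435_Chr4-1037 at 453 ± 89.99 TPM and PP7435_Chr3-2788 at 199.6 ± 23.9 TPM.

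The 16 α-biased features together took 0.0919% ± 0.00214 of all acetate counts for a-type, 2.52% ± 0.179 for α-type and 3.80% ± 0.257 for wild type (SD, n = 3 each). Their YPD shares were 0.0742% ± 0.00651 for a-type, 0.0685% ± 0.0109 for α-type and 0.0865% ± 0.0126 for wild type. PP7435_Chr2-0521 and PP7435_Chr2-0522 alone accounted for 1.79% ± 0.138 of the counts in acetate α-type and 2.12% ± 0.217 in acetate wild type. Without these 2, the other 14 took 0.721% ± 0.0437 in acetate α-type and 1.67% ± 0.0514 in acetate wild type. The 9 a-biased features took 0.307% ± 0.0304 of acetate counts for a-type, 0.0599% ± 0.00251 for α-type and 0.208% ± 0.0167 for wild type. Their YPD shares were 0.142% ± 0.0251 for a-type, 0.0693% ± 0.0154 for α-type and 0.122% ± 0.00953 for wild type.

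**Figure D2:**
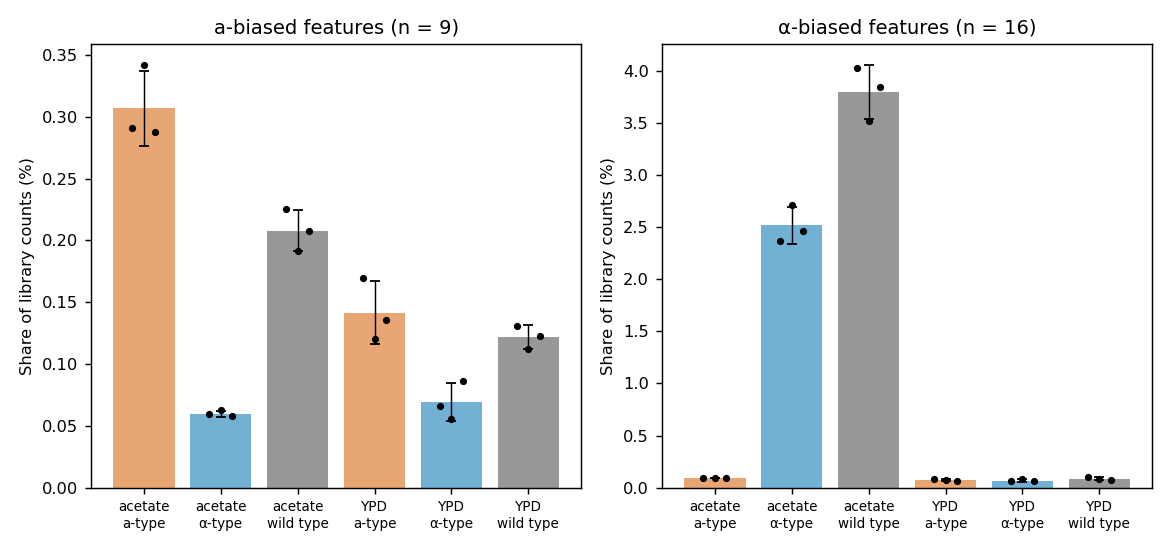
Share of all library counts, in percent, taken by the 9 a-biased (left) and 16 α-biased features (right) in each group; bars are means, error bars SD and points the 3 libraries of a group, and the 2 panels have different vertical scales. The α-biased features take 2.52% in acetate α-type and 3.80% in acetate wild type, and less than 0.1% in acetate a-type and in the mean of each YPD group.

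The bias seen in acetate was mostly not seen in YPD, in libraries that had no part in the choice of features. In edgeR's quasi-likelihood test on the 9 YPD libraries, 7 of 9 a-biased and 7 of 16 α-biased features passed the filter on low counts. Both features called higher in a-type among the 3646 tested (0.0549%) were a-biased, PP7435_Chr4-1037 and PP7435_Chr4-1169. No α-biased feature was called, where 0 of 3646 features were higher in α-type (0%). At an unadjusted p under 0.05, 1 α-biased feature was higher in α-type, PP7435_Chr4-1158, and DESeq2 called 0. Over all features 49 had an unadjusted p under 0.05 in either direction. In the simpler count, a-type libraries lay above α-type libraries in YPD for 2 of 9 a-biased features, against 4.93% of the 4013 features at or above 20 CPM in either heterothallic strain in acetate. For the α-biased features the α-type libraries lay above in 1 of 16 (PP7435_Chr4-1158; 1.77% of the 4013) and below in 1 of 16 (PP7435_Chr2-0522; 4.93%). The ratio of a-type to α-type in YPD had a median of 1.13 over the a-biased features, with a range of 0.660 to 50.8, and of 1.01 over the α-biased, with a range of 0.325 to 2.55, beside 1.06 over the 4013 features. YPD had the wider spread between replicates and the lower depth.

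**Figure D3:**
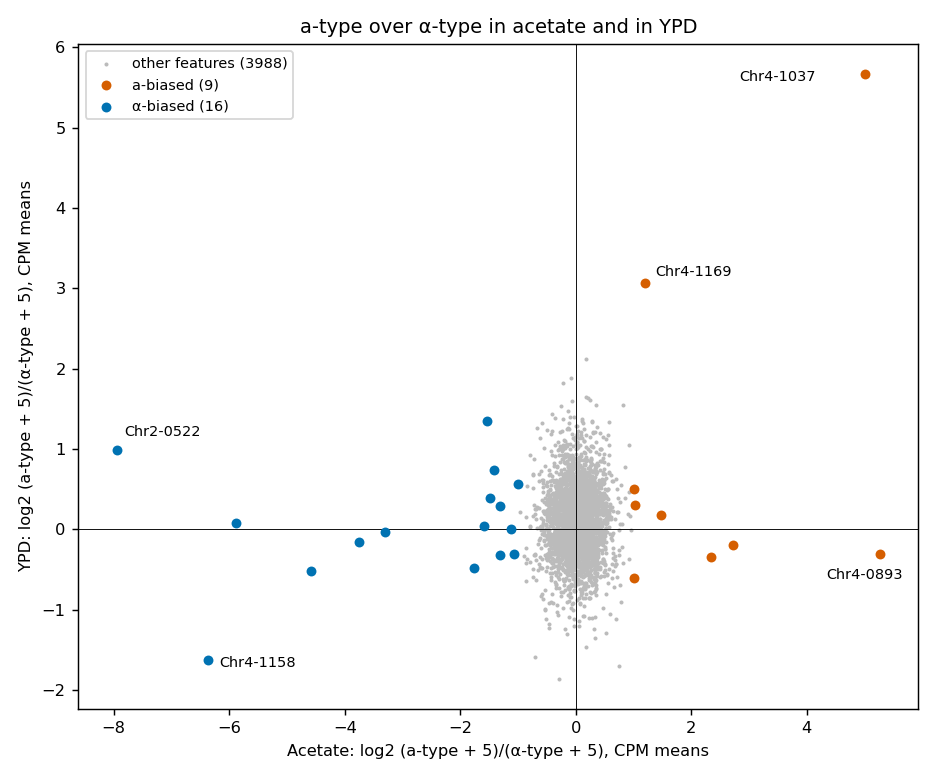
Log2 ratio of a-type to α-type, on the scale of mean + 5 CPM, in acetate (horizontal) and YPD (vertical) for 4013 features; orange points are a-biased, blue points α-biased and grey points the other 3988. PP7435_Chr4-1037 lies high on both axes, at 50.8-fold in YPD. PP7435_Chr4-1169 lies high in YPD, at 8.36-fold, but at 2.28-fold in acetate. The other 23 lie within the vertical range of the grey points.

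Against wild type in YPD, the fit on the 9 YPD libraries made 3 calls, all on biased features. In a-type, PP7435_Chr4-1037 was the 1 feature higher than in wild type and PP7435_Chr4-1158 the 1 feature lower (0.0274% of 3646 each). Other fits called more features that are not biased: with all 18 libraries 2 of the 20 called were biased features, and with DESeq2 1 of 6. In α-type 0 features were higher (0%) and 1 was lower than in wild type, PP7435_Chr4-1169 (0.0274%). At an unadjusted p under 0.05, 1 a-biased feature, PP7435_Chr2-0751, was higher in α-type than in wild type, and no α-biased one was higher in α-type or in a-type. In the other direction, PP7435_Chr4-1158 was the 1 α-biased feature lower than wild type at that level in a-type, and likewise in α-type. DESeq2 also called no feature higher in α-type than in wild type.

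Wild-type libraries had no part in the rule, although the fit of acetate against YPD in wild type shares its estimate of spread with all 18 libraries. In edgeR's test over 4783 features, 15 of the 16 α-biased features rose in wild type in acetate relative to YPD, beside 25.6% of all features tested, and none fell, beside 23.3%. The rule asked for a high α-type level in acetate and for no level in YPD, where 7 of the 16 passed the filter on low counts. Features raised by acetate could thus be favoured, so the shares of all features tested are not a like base. At an unadjusted p under 0.05 also 0 of them fell, and DESeq2 called 0 lower. Their log2 fold changes lay between 2.02 and 9.02. The largest were those of PP7435_Chr2-0522 (9.02, SE 0.30, adjusted p = 9.41e-17), PP7435_Chr1-1291 (8.79, SE 0.52, adjusted p = 1.85e-12) and PP7435_Chr2-0521 (7.01, SE 0.37, adjusted p = 3.64e-13). PP7435_Chr2-0374 rested on 1 count in YPD wild type, with a ratio of 51.5 and a 95% counting interval of 9.09 to 2051, and PP7435_Chr1-1092 on 3, with a ratio of 5.81 and an interval of 1.86 to 29.3. The exception was PP7435_Chr2-0523 (-0.21, SE 0.30, adjusted p = 0.576).

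Of the a-biased features, 5 of 9 rose in wild type, beside 25.6% of the 4783 features tested. Another 2 of 9 fell, which is near the 23.3% of all features tested that fell. PP7435_Chr4-0893, with 1 count in YPD, rose by a ratio of 136, whose 95% counting interval ran from 24.2 to 5370 (adjusted p = 1.35e-08, edgeR). PP7435_Chr3-0313 rose by 2.18 on the log2 scale (SE 0.48, adjusted p = 0.000576), PP7435_Chr3-0320 by 1.63 (SE 0.34, adjusted p = 0.000316) and PP7435_Chr3-2788 by 1.58 (SE 0.24, adjusted p = 8.36e-06). PP7435_Chr4-1169 was at the threshold, at 0.67 (SE 0.27, adjusted p = 0.0436), and lost it with upper-quartile scaling, with a replicate block and without any 1 of 5 wild-type libraries (adjusted p 0.0559 to 0.182). Those that fell were PP7435_Chr2-0751 (-1.53, SE 0.45, adjusted p = 0.00699) and PP7435_Chr2-0854 (-1.18, SE 0.34, adjusted p = 0.00555). PP7435_Chr4-1037 (1.41, SE 0.70, adjusted p = 0.0997) and PP7435_Chr3-0371 (-0.11, SE 0.43, adjusted p = 0.845) did not pass.

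Acetate against YPD within each heterothallic strain shares the acetate libraries of the rule, so only counts are given. Of the α-biased features, 6 of 16 were at least 2-fold above YPD without overlap in a-type (18.2% of the 4013 features), 13 in α-type (20.7%) and 15 in wild type (19.2%). In a-type 3 were at least 2-fold below YPD without overlap (13.1%), PP7435_Chr2-1103, PP7435_Chr4-0512 and PP7435_Chr2-0523. Median ratios of acetate to YPD were 1.38 in a-type, 10.8 in α-type and 21.3 in wild type, beside 1.03, 1.09 and 0.922 over the 4013 features. Of the 9 a-biased features, 4 were at least 2-fold above YPD without overlap in a-type, 1 in α-type and 4 in wild type, with median ratios of 1.65, 0.976 and 1.70 in a-type, α-type and wild type. Within the α-biased group the a-type value was near 1 for PP7435_Chr2-0521, PP7435_Chr2-0522, PP7435_Chr3-0319 and PP7435_Chr1-1092, with ratios of 0.928, 1.23, 0.949 and 0.920.

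**Figure D4:**
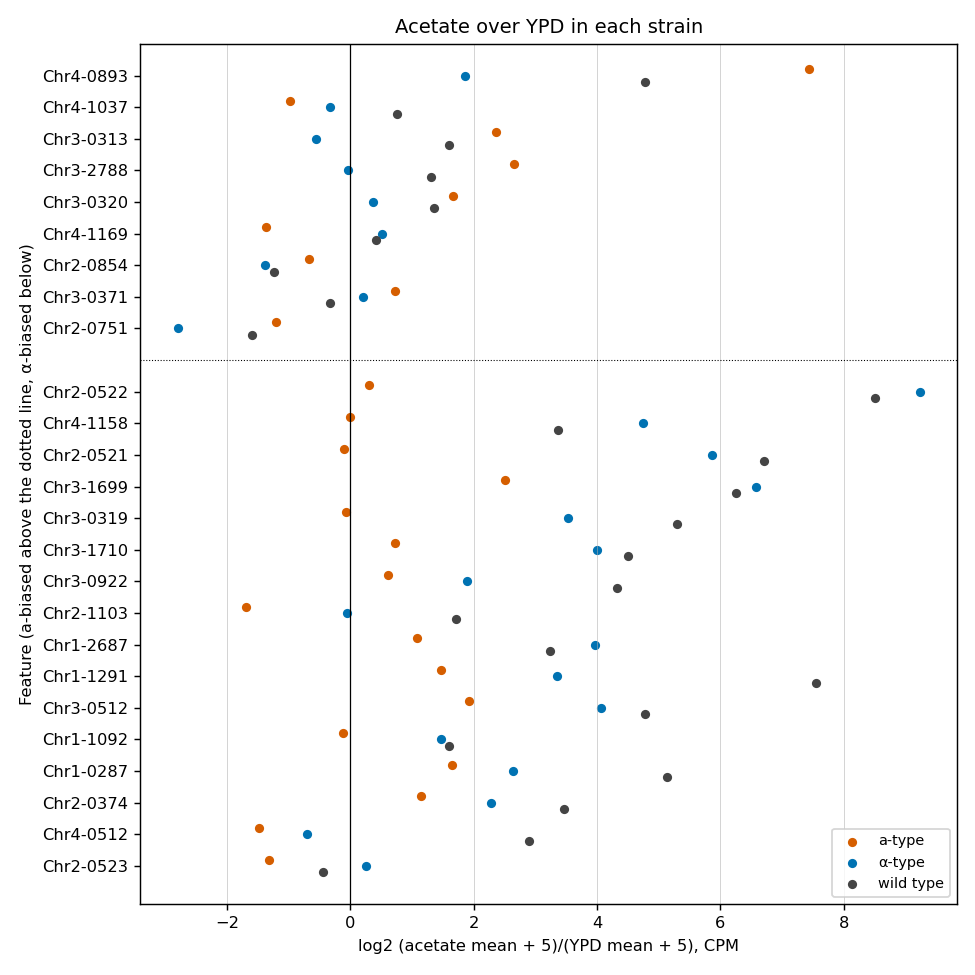
Log2 ratio of acetate to YPD for each of the 25 features, on the scale of mean + 5 CPM, in a-type (orange), α-type (blue) and wild type (grey); each point is the ratio of 2 group means. Among the α-biased features below the dotted line, the ratio is lower in a-type than in α-type and in wild type, and the wild-type point lies above 2-fold for 15 of 16.

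In acetate, wild type stood differently to the 2 groups. Means of both heterothallic strains lay below the wild-type mean for 1 of 9 a-biased and 12 of 16 α-biased features, beside 18.1% of the 4013 features. For the a-biased features, wild type lay between the strains in 6 of 9 (8.3%) and below both in 2 (73.6%), PP7435_Chr3-0371 and PP7435_Chr2-0854. For the α-biased features it lay between the strains in 4 of 16, namely PP7435_Chr2-0522, PP7435_Chr1-2687, PP7435_Chr1-1092 and PP7435_Chr2-0523, where α-type was 1.04 to 1.22 times wild type on the scale of mean + 5 CPM. In 10 of 16 α-biased features every wild-type library lay above every heterothallic one (9.49%). These positions depended on scaling. With library sums, the median log2 ratio over the 4013 features was 0.42 for a-type over wild type and 0.38 for α-type over wild type, and with TMM these were 0.08 and 0.07. With TMM, both strain means lay below wild type for all 16 α-biased features, and wild type lay between the strains for 8 of 9 a-biased features. The heterothallic libraries chose the features, so these counts were not tested. The rule set the 2 strains at least 2-fold apart, whereas the median log2 ratio of a-type to α-type over the 4013 features was 0.03. Wild type therefore has more room between the strains in the chosen features, and the shares of the 4013 are not a like base.

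By size, the mean of the higher heterothallic strain was 0.0634 to 1.22 times wild type over the α-biased features, with a median of 0.423, on the scale of mean + 5 CPM. Over the a-biased features it was 0.213 to 8.44 times wild type, with a median of 2.14, beside 1.41 over the 4013 features. The acetate level of the higher strain chose the features, so 1.41 is not a like base, and these sizes were not tested. The ratios use library sums, and TMM was not applied to them. The lowest α-biased ratios were those of PP7435_Chr1-1291, PP7435_Chr4-0512 and PP7435_Chr3-0922, at 0.0634, 0.116 and 0.159. PP7435_Chr4-1037 and PP7435_Chr4-0893 had the highest a-biased ratios, 8.44 and 5.14.

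**Figure D5:**
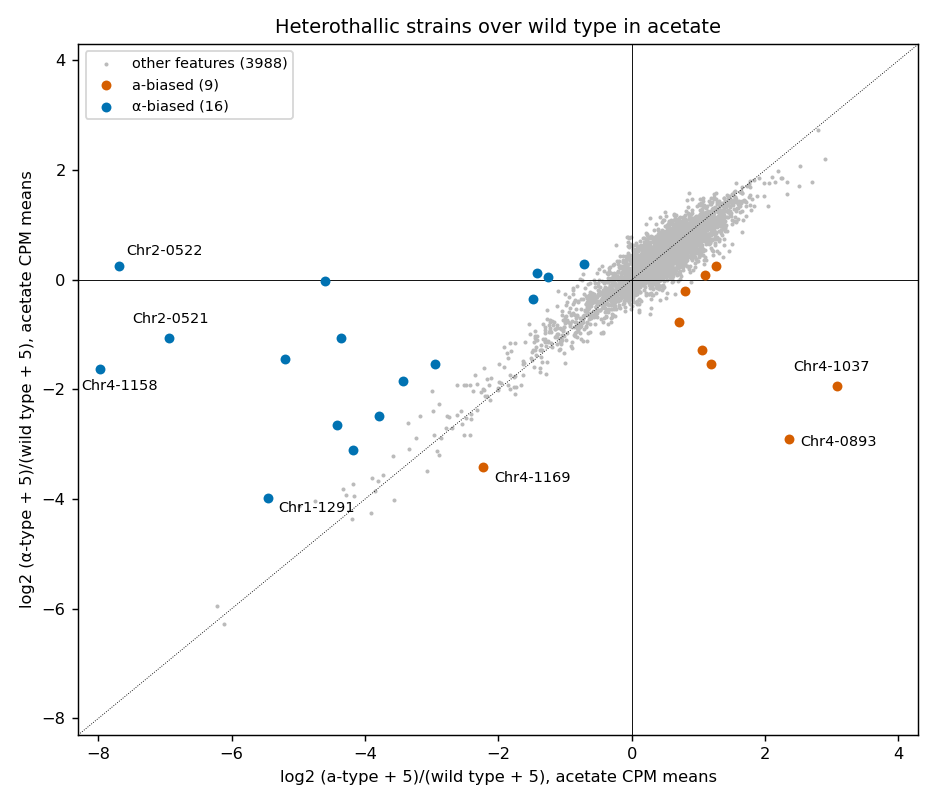
Acetate levels of the heterothallic strains relative to wild type for 4013 features, as log2 ratios on the scale of mean + 5 CPM, with a-type over wild type on the horizontal and α-type over wild type on the vertical axis; orange points are a-biased, blue points α-biased and grey points the other 3988, and the dotted diagonal marks equal levels in a-type and α-type. All 16 α-biased features lie left of 0, so below wild type in a-type, 12 of them also below 0 on the vertical axis; PP7435_Chr4-1169 is the a-biased feature below wild type in both strains.

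The features were spread over the chromosomes. Chromosome 1 held 0 a-biased and 4 α-biased features, chromosome 2 held 2 and 5, chromosome 3 held 4 and 5, and chromosome 4 held 3 and 2, out of 1241, 1029, 972 and 771 features at or above 20 CPM. Besides the run from PP7435_Chr2-0521 to PP7435_Chr2-0523 and the consecutive PP7435_Chr3-0319 and PP7435_Chr3-0320, PP7435_Chr3-1699 and PP7435_Chr3-1710 had no listed feature between their serial numbers, and likewise PP7435_Chr4-1158 and PP7435_Chr4-1169. The files give no coordinates, so whether these features are neighbours on the chromosome was not tested. The α-biased features had a median coding length of 816 bases and a range of 312 to 1710, beside 1191 and 537 to 3765 for the a-biased and a median of 1311 over the 4013 features. A coding length under 700, a limit chosen after the lengths were seen, was found in 8 of 16 α-biased and 1 of 9 a-biased features, beside 15.5% of the 4013.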

How the data were processed

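The authors deposited 1 kallisto table per sample with estimated counts and TPM, per the file headers. Per the submitters' processing notes, the tools were kallisto, DESeq2, SAMtools, TopHat2, Trim Galore 0.4.2 and FastQC 0.11.2, given with no role, and a genome build not given in the sources used here. Another 9 tables of the whole series were not used. Members were chosen by library-sum CPM as described. Before testing, the estimated counts were rounded, and they were fitted by edgeR 4.0.16 under R 4.3.3 (TMM, filterByExpr, quasi-likelihood, Benjamini-Hochberg over all features tested, threshold 0.05). YPD comparisons used the 9 YPD libraries. Wild type in acetate against YPD used all 18. A pseudocount of 5 CPM understates changes of weak features. Alternatives were upper-quartile scaling, DESeq2 1.42.0, no filter, other sets of libraries, a test against a log2 fold change of 1, a replicate block, TPM, other pseudocounts and floors, and leaving out each replicate. Values in every library are given for the 6 features of each bias with the largest ratio, for consecutive serial numbers and for those called in YPD. The members and lists were chosen with earlier results of these data known.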

Additional observations from a re-analysis of the deposited data

Results flagged for a closer look

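For 4 features every library of one strain moved one way between the media and every library of another strain moved the opposite way, or the bias itself was turned round between the media. The differences were not tested, because the acetate values of a-type and α-type chose the features. Ratios are of acetate to YPD means on the scale of mean + 5 CPM unless said otherwise. PP7435_Chr4-1169 had a ratio of 0.39 in a-type, 1.43 in α-type and 1.34 in wild type. PP7435_Chr4-0512 had ratios of 0.361 in a-type and 0.617 in α-type, against 7.44 in wild type. PP7435_Chr2-1103 had 0.31 in a-type, against 3.3 in wild type. For PP7435_Chr2-0522 the ratio of a-type to α-type was 0.00404 in acetate and 1.98 in YPD, where it rested on 33 counts in a-type and 14 in α-type.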

How the results depend on the processing

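The number of a-biased features was 15 with a pseudocount of 1 CPM in place of 5, 6 with TMM-adjusted library sizes, and 7 to 14 without any 1 acetate library, where it was 14 without a-type replicate 1 and 14 without α-type replicate 2. The number of α-biased features was 14 to 22 without any 1 library, and 12 of the 16 were kept without α-type replicate 2. In YPD, the count of features called between a-type and α-type, 2, was 1 to 2 without any 1 library, as was that of a-biased features called higher in a-type, being 1 without α-type replicate 1 or 3. The 2 called between a-type and wild type became 6 with DESeq2, 20 with all 18 libraries and 1 to 3 without any 1 library, and the 1 α-biased feature lower in a-type became 0 with DESeq2, which gave adjusted p-values for 1918 features and 3 of the 16 α-biased ones and none for PP7435_Chr4-1158, and 0 to 1 without any 1 library. Between α-type and wild type the 1 called feature became 2 with DESeq2 and 2 with all 18 libraries, and α-biased features lower in α-type numbered 1 in both. In wild type, testing against a log2 fold change of 1 left 1151 of 2339 calls, with 0 a-biased features lower in acetate, and with upper-quartile scaling 1067 features rose and 1321 fell, against 1224 and 1115, as the median over all features tested shifted to -0.15 against 0.03 (log2). Features whose YPD libraries did not overlap in the acetate direction numbered 2 to 4 (a-biased) and 1 to 2 (α-biased) without any 1 library, 4 and 2 without a-type replicate 1. With TMM, wild type lay below both strains for 0 a-biased features and between them for 0 α-biased. The cause of these differences was not tested. By construction, the condition of no overlap is easier to meet with a library left out, and a smaller pseudocount gives larger ratios for weak features. Same-numbered libraries of the compared groups did not deviate together throughout, with correlations of -0.42 to -0.18 between a-type and α-type, -0.16 to 0.32 between a-type and wild type and -0.03 to 0.28 between α-type and wild type in YPD, and -0.06 to 0.02 between the media in wild type. No comparison had every correlation over 0.1. Such correlations cannot show whether same-numbered samples came from the same culture, so whether the samples are paired is not known. A replicate block left 2, 2 and 1 calls in the 3 YPD comparisons and 2153 in wild type.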

Other observations

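The acetate α-type libraries were uneven over the α-biased features. Replicate 2 was the highest of the 3 libraries for 11 of the 16 α-biased features (68.8%), and for 40.2% of the 4013 features at or above 20 CPM. The same libraries chose the α-biased features, so a high replicate 2 could bring a feature in. The 40.2% is therefore not a like base, and the difference was not tested. Without replicate 2, 12 of the 16 met the rule, and PP7435_Chr1-0287, PP7435_Chr1-1092, PP7435_Chr2-0374 and PP7435_Chr2-0523 did not. As a ratio to the next-highest library, replicate 2 stood out most in PP7435_Chr1-1291, with 97.5, 179 and 69.8 CPM, PP7435_Chr3-0922, with 66.97, 120.2 and 53.8 CPM, and PP7435_Chr1-0287, with 178, 287 and 139.7 CPM, features named here after their values were seen. Acetate wild type was higher in all 3, at 1834, 1855 and 1993 CPM, 527, 557 and 513 CPM and 1164, 1001 and 1288 CPM.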
